A study of Drosophila melanogaster with 21 samples.

Results

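RNA was examined in 6 libraries of hemocyte-derived Drosophila S2 cells, 3 after transfection with double-stranded RNA against Mi-2 (dsMi-2) and 3 after transfection with a non-targeting double-stranded RNA against EGFP (dsEGFP). These are 6 of the 21 libraries of the study. RNA was collected 4 days after transfection, and each replicate number stands for an independent transfection. All cells were S2[Cas9] cells, a single line that carries the Cas9 nuclease, and a single dsRNA sequence against dMi-2 was used, so that effects of that sequence on other genes cannot be told apart from those of the depletion. Another group of 3 libraries in the same table (dsUsh) came from cells depleted of all isoforms of Ush and entered the fit for its estimate of the spread and for the difference between both depletions. A gene was tested if its normalised counts averaged 5 or more over the 9 libraries of the table, which is 9132 of 17737 listed genes, and 8605 genes were not tested. A normalised count is a read count divided by a size factor of its library. The genes CR33283 and CG6024, both at a mean of 4.99, lay just outside this limit, and CG8100 and CG15865, both at 5.01, just inside it.

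The dMi-2 protein is an ATP-dependent chromatin remodeller of the CHD family. It is the motor subunit of the Drosophila NuRD complex (dNuRD), which joins nucleosome remodelling to histone deacetylation and is best known as a corepressor that zinc finger proteins bring to promoters and enhancers. The same ATPase also works with MEP-1 in the dMec complex. Ush, a zinc finger cofactor of GATA factors in blood cell development, was studied together with dNuRD in the same cells, and the comparison described here asks which transcripts depend on dMi-2.

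The libraries held 21925248 to 23606546 reads on genes, and the 10 genes with most reads took 7.03% to 9.05% of them in dsEGFP and 7.29% to 9.15% in dsMi-2 libraries. A floor of 3 reads was equal to 2.71 to 3.20 normalised counts in the control and 2.91 to 2.98 in the dMi-2-depleted libraries. Of the markers of S2 cells and plasmatocytes, the GATA factor gene srp had 3329.7, 3879 and 4572 normalised counts in control libraries 1 to 3, and the scavenger receptor gene crq had 12970, 9284 and 13316, whereas NimC1 had at most 3 reads in every library. All 10 markers of this type together summed to 14186 to 18824 normalised counts in the dsEGFP and 22661 to 25674 in the dsMi-2 libraries. Most of this sum was crq, whose log2 change of 0.515 did not pass an adjusted p under 0.01 (limma adjusted p = 0.0139). Single members moved both ways, with log2 changes of 2.20 for Col4a1 and 1.87 for vkg but -3.77 for eater and -1.58 for Hml. Among markers of other cell types, all 5 midgut markers together summed to 1.04 to 3.62 normalised counts in the dsEGFP and 1.95 to 6.96 in the dsMi-2 libraries. Of the 6 fat body markers 5 had at most 3 reads in every library. The remaining fat body marker, Cyp4g1, had 652, 429 and 541 normalised counts in dsEGFP and 389, 289 and 250.5 in dsMi-2 libraries. Its change did not pass (limma adjusted p = 0.0131). Summed markers of muscle (680 to 710 against 738 to 983), neurons (1376 to 2783 against 1262 to 1978) and germline (1679 to 2371 against 1858 to 2230) were well above the floor in both groups. Few members carried these sums, Mef2 for muscle, brp and elav for neurons and zpg for germline. In every control library Act88F, Tm2, up, nSyb, Syt1, fne, vas and nos had at most 8.53 normalised counts.

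The targeted transcript came first. Mi-2 had 5247, 5417 and 4272 normalised counts in dsEGFP replicates 1, 2 and 3 and 1567, 1125 and 1152 in the dsMi-2 replicates. The groups did not overlap, and 29.9%, 20.8% and 27.0% of the transcript of the same-numbered control remained. This was a log2 change of -1.97 (SE 0.10, limma adjusted p = 2.99e-05). The Mi-2 gene overlaps other annotated genes, and whether reads were counted by strand is not given in the sources used here, a limit for each gene below that overlaps another one. Of the genes given below with values per library these are Acsl, aub, boi, btl, CG11825, CG16762, Cpr51A, Dif, disp, Fas3, Fili, Fs, fz, fz2, goe, grk, GstE9, ItgaPS4, Itgbn, Lpin, nau, Nrg, numb, PGRP-LF, Pvf3, Swim and Tig.

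Among the other 7 subunits of dNuRD and dMec on the list, the exception was simj, which encodes the p66 subunit. It had 1174, 1423 and 1498 normalised counts in control cells and 2766, 3106 and 3007 after dMi-2 depletion, and the groups were far apart. The change was 1.12 (SE 0.08, limma adjusted p = 0.000159) on the log2 scale. In Ush-depleted cells simj was at 973, 1042 and 932, and the difference between both depletions passed the test (adjusted p = 7.8e-06). The other 6 genes did not pass. Their log2 fold changes were -0.18 for HDAC1, the histone deacetylase (adjusted p = 0.0694), -0.05 for MBD-like, 0.01 for CDK2AP1, 0.03 for MTA1-like, 0.07 for the histone chaperone Caf1-55 and 0.84 for MEP-1, whose reads were few in most libraries and which overlaps CG42245. Of 12 other remodelling ATPases only brm, the Brahma motor, passed, with a log2 change of -0.53 (SE 0.09, limma adjusted p = 0.00566). With only the 6 libraries in the fit brm did not pass (limma adjusted p = 0.0105). Of 18 Polycomb group genes only Psc passed (0.73, adjusted p = 0.00077). These shares, 8.33% and 5.56%, were under the 13.0% of all tested genes that passed.

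In dMi-2-depleted cells 1187 of the 9132 genes tested (13.0%) passed an adjusted p under 0.01 in limma with the replicate number as a block. Expression of 697 genes (7.63%) rose and that of 490 genes (5.37%) fell, and below, rose and fell are used of genes past this threshold. The sizes were uneven. The rises had a median of 1.84 on the log2 scale of the normalised count plus 1, and the falls a median size of 0.67. At least 2-fold changes were found for 501 genes that rose and 158 that fell, at least 4-fold changes for 324 and 46, and at least 16-fold changes for 62 and 5. The median log2 fold change of all tested genes was -0.01. In 1118 of the 1187 genes the groups did not overlap, as in 31.9% of all genes tested.

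**Figure D1:**
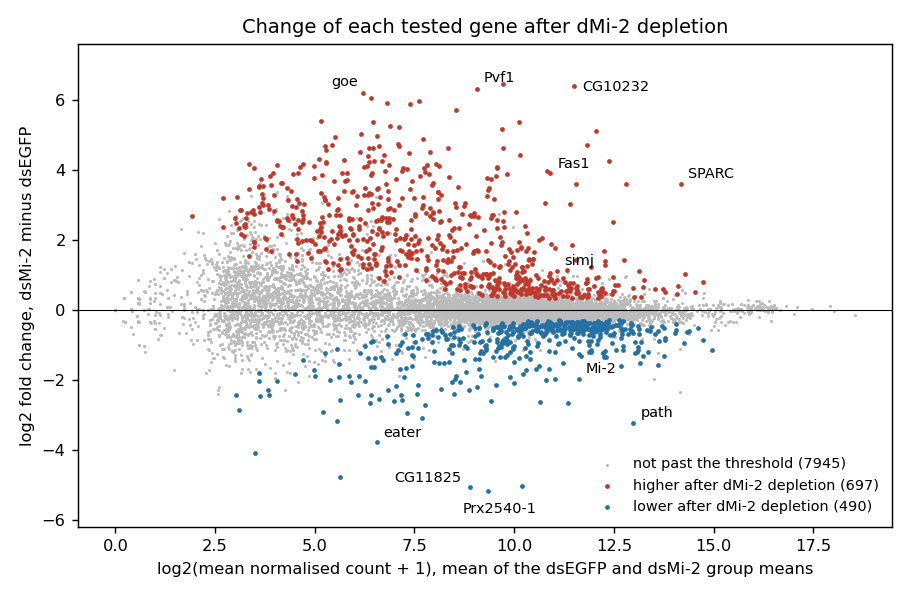
Log2 fold change (dsMi-2 minus dsEGFP, vertical axis) against the log2 of the mean normalised count plus 1 of both groups (horizontal axis), 1 point for each of 9132 tested genes, with the 697 genes that rose in red and the 490 that fell in blue. The points above 0 reach further from 0 than those below, with 324 rises and 46 falls of at least 4-fold.

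The share of rises and falls varied with the number of reads in control cells. It is given for genes with a mean of 50 or more normalised counts in dsEGFP libraries, which the controls alone carry past the filter, since genes with fewer could pass it through the group where they are high. Between 50 and 500 counts 10.6% rose and 4.76% fell, between 500 and 5000 counts 4.54% rose and 6.86% fell, and of 816 genes over 5000 counts 1.72% rose and 12.3% fell. The dsEGFP libraries set these bins and also enter the comparison, so the shares by level are a description. The median standard error of the log2 fold change was 0.16 between 50 and 500 counts and 0.09 over 5000 counts. In limma without the replicate block 574 genes (6.29%) passed, all of them among the 1187. The count also depended on single libraries, as it was 541 and 575 without dsEGFP replicates 2 and 3, and 645, 486 and 394 without dsMi-2 replicates 1, 2 and 3. Leaving out all libraries with number 1, 2 or 3 gave 666, 408 and 120 genes.

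The largest rises included secreted and cell surface proteins. Named here are the 15 largest changes among genes that passed, averaged 50 or more normalised counts over the 6 libraries and had no overlap between the groups. The serine protease gene CG10232 had 102, 59.4 and 46.9 normalised counts in control cells and 5938, 6105 and 4975 in dMi-2-depleted cells (log2 change 6.40, SE 0.31, limma adjusted p = 2.99e-05). CG6357, a papain-like cysteine protease gene, went from 34.4, 15.6 and 9.60 to 1996, 1971 and 1047. Pvf1, a ligand of the PDGF/VEGF receptor of hemocytes, went from 13.6, 7.29 and 13.9 to 1557, 1061 and 549. All 3 stood far above their controls in each library, and for Pvf1 the dsMi-2 libraries differed among themselves, from 549 to 1557. Follistatin (Fs), an antagonist of activin-type ligands, had 23.5, 13.5 and 6.40 normalised counts in control cells and 878, 683 and 621 after depletion, a log2 change of 5.70 (SE 0.28, limma adjusted p = 2.99e-05). It overlaps CG8079 and an antisense RNA that rose with it (CR44370, log2 fold change 4.73). Idgf4, an imaginal disc growth factor of the chitinase-like family, had 4.52, 2.08 and 2.13 in control cells and 283, 134 and 98.5 in depleted cells.

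The serpin gene Spn88Eb rose from 5.43, 3.13 and 3.20 to 167, 599.8 and 227 normalised counts, where replicate 2 was the highest. A second serine protease gene, CG4927, had a log2 fold change of 5.98, the unconventional myosin gene Myo10A of 5.91 and the UDP-glycosyltransferase gene Ugt58Fa of 5.37, with 2767, 2099 and 1651 normalised counts after depletion. The gene CG5080 had 409, 200.03 and 165 normalised counts before and 9647, 7747 and 7499 after depletion. The rest were goe, Fili, CG6959, CG17167 and CG5399, with log2 fold changes from 5.18 to 6.19. For CG5399 the level in Ush-depleted cells was higher still (3865, 7944 and 4286 against 1609, 1191 and 2074 in dMi-2-depleted cells, adjusted p of the difference = 0.00371). For the other 14 genes dsMi-2 exceeded dsUsh in the test of the difference, with adjusted p from 4.36e-06 to 0.00365. The high dsMi-2 libraries that chose these genes enter this test too, so its direction is not separate support. Among the 14, CG10232, Pvf1 and Fs were also above control past the threshold after Ush depletion (log2 fold changes 2.55, 2.94 and 1.54). The rest of them were not.

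**Figure D2:**
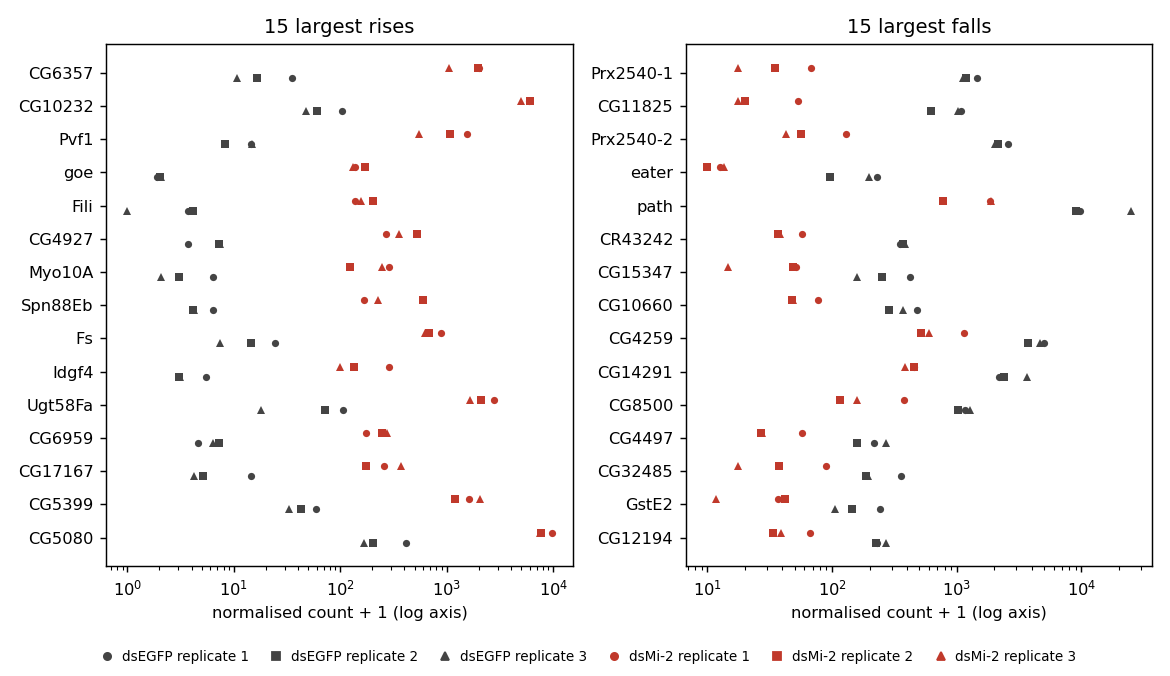
Normalised count plus 1 (log axis) in each of the 3 dsEGFP libraries (grey) and 3 dsMi-2 libraries (red), with the marker giving the replicate number, for the 15 largest rises (left) and the 15 largest falls (right). The groups are apart in every row, as the choice of genes required, and Pvf1 spans 549 to 1557 normalised counts within the dsMi-2 group.

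A group of genes was close to silent in control cells. Genes with at most 3 reads in every dsEGFP library could be tested only where dsMi-2 or dsUsh libraries were higher, so the 34 that rose among 202 such genes are a description and say nothing of how often silent genes rise. Counts of these genes carry few reads in control cells, and fold changes are given as lower bounds against a floor of 3 reads per control library. The leucine-rich repeat gene Fili reached 136, 203 and 157 normalised counts, at least 54.8-fold higher, and goe, a neprilysin-like gene, reached 136, 171 and 131, at least 48.4-fold higher. Both overlap other genes. Transcripts of gnu, a maternal regulator of the early embryonic cell cycle, came to 44.6, 70.6 and 90.7 (at least 22.8-fold) and those of the integrin ligand gene tnc (Tenectin) to 48.5, 27.9 and 55.6 (at least 14.6-fold). Each of these 4 had no more than 3.20 normalised counts in any control library. The bound was 10.5-fold for CG14628, 9.34-fold for CG15336, 13.4-fold for CG31028, 9.32-fold for the RNA CR44264 and 8.75-fold for the RNA-binding protein gene cpo. CG44013 rose to 115, 31.8 and 48.7, and to 444, 3670.5 and 504 in Ush-depleted cells.

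The largest falls, of Prx2540-1, CG11825 and Prx2540-2, lay in a group of 4 neighbouring genes. In the order of the Release 6 annotation, Prx2540-2, CG11825, Prx2540-1 and CG12896 lie beside each other on chromosome arm 2R, with the low gene CG33474 inside CG11825. Prx2540-1 and Prx2540-2 encode near-identical peroxiredoxins, enzymes that reduce peroxides, and CG12896 is another peroxiredoxin-like copy, so that reads could be split among them. Prx2540-2 had 2595, 2165 and 2012 normalised counts in control cells and 128, 55.7 and 41.9 in dMi-2-depleted cells (log2 change -5.05, SE 0.47, limma adjusted p = 0.000288). Prx2540-1 went from 1467, 1197 and 1116 to 66.9, 33.8 and 16.6 and CG11825, an unrelated gene annotated as HIG1-like, from 1089, 618 and 1028 to 52.4, 18.9 and 16.6. In CG12896 the counts were 23.5, 21.9 and 15.998 and 0.970, 0 and 0. All 4 were nearly lost from each dsMi-2 library. CG33474 had a log2 fold change of -1.79 that did not pass (adjusted p = 0.0426), and next to CG12896 the genes RanBPM (-0.14, adjusted p = 0.412) and CG12895 (-0.18, adjusted p = 0.196) did not pass either. The neighbours CG33474, RanBPM and CG12895 were chosen after their values were seen. In Ush-depleted cells the log2 fold changes were 1.61 for Prx2540-1, 1.63 for Prx2540-2 and 0.12 for CG11825, and each differed from dMi-2 depletion (adjusted p from 2.26e-05 to 3.48e-05). The low dsMi-2 libraries that ranked these genes enter that test too.

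Of the other large falls, eater, a phagocytic receptor gene of plasmatocytes, had 229.8, 95.8 and 196 normalised counts in control cells and 11.6, 8.95 and 12.7 after depletion (log2 change -3.77, SE 0.35, limma adjusted p = 0.000278). In 4 separate control libraries of the Ush-B experiment, normalised in another table, eater ranged from 2.702 to 588 normalised counts, a wider spread among controls than in the table used here. The amino acid transporter gene path had 9766, 9127 and 25170 and 1852, 778 and 1899.8 normalised counts. CG4259, which is annotated as a serine protease homologue, fell from 5007, 3736 and 4623 to 1139, 514 and 596, and CG14291, named Sgsh for its likeness to a human lysosomal sulfatase, from 2201, 2417 and 3687 to 456, 456 and 386. In both genes all 3 depleted libraries were well under the lowest control. The glutathione S-transferase gene GstE2 had a log2 fold change of -2.56. The remaining members, CR43242, CG15347, CG10660, CG8500, CG4497, CG32485 and CG12194, ranged from -2.44 to -3.09. CG10660, CG15347 and CG14291 had positive log2 fold changes after Ush depletion (1.96, 3.12 and 1.27), and the difference passed in each (adjusted p from 3.26e-06 to 1.72e-05). Of the largest falls eater alone was also below control past the threshold after Ush depletion. It had 4.34, 2.27 and 10.7 normalised counts there (log2 change -4.80), and the difference between both depletions did not pass (adjusted p = 0.0374).

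Genes of hemocyte function were described by list, each list by how many tested members rose and fell, and for comparison 7.63% of all tested genes rose and 5.37% fell. A member with few reads in control cells could pass the filter through the group where it was high, and had little room to fall. The counts of this and the other lists are therefore a description of the tested members. Basement membrane components are secreted by hemocytes in the embryo and larva. Of 13 tested genes 5 rose and 0 fell, with a median log2 fold change of 0.26, and 4 of the 5 passed without the replicate block. SPARC, a collagen-binding glycoprotein, had 1931, 4009 and 2844 normalised counts in control cells and 28240, 35777 and 39000 in dMi-2-depleted cells, a log2 change of 3.60 (SE 0.28, limma adjusted p = 0.000163). The 2 chains of collagen IV rose together, Col4a1 from 597, 450.1 and 314 to 1555, 2905 and 1808 and vkg from 385, 339.6 and 299.7 to 952, 1766 and 1135. Both lie side by side in the genome and were highest in replicate 2. The multiplexin gene Mp had a log2 fold change of 2.37 and trol, which encodes perlecan, of 1.79. The laminin genes LanA (-0.02), LanB1 (-0.18) and LanB2 (0.19) did not pass. Ush-depleted cells stood at the other end, with SPARC at 332, 205 and 214, Col4a1 at 142, 68.2 and 74.7 and vkg at 128, 86.4 and 81.1. In the test of dMi-2 against Ush depletion 9 of the 13 genes were higher after dMi-2 depletion, where 15% of all tested genes were.

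**Figure D3:**
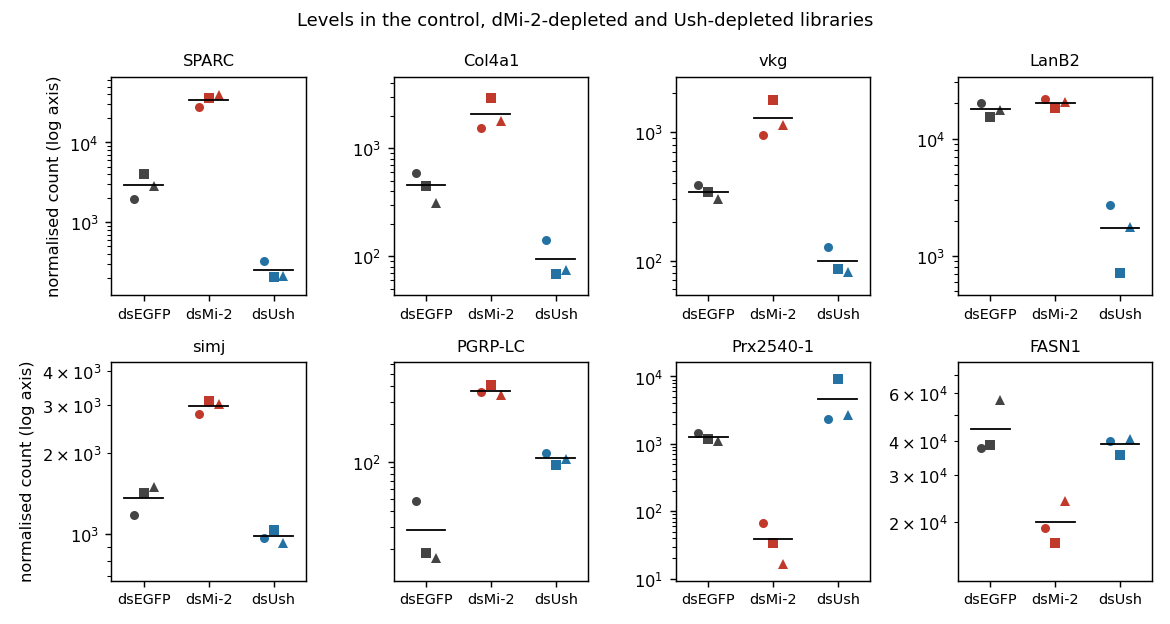
Normalised counts (log axis, own scale in each panel) of 8 genes in the 3 dsEGFP, 3 dsMi-2 and 3 dsUsh libraries, with the marker giving the replicate number and the line the group mean. SPARC, Col4a1 and vkg are highest in dsMi-2 and lowest in dsUsh libraries, and Prx2540-1 is lowest in dsMi-2 libraries.

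Of 19 tested phagocytosis and scavenger receptor genes 5 rose and 2 fell (median 0.57), and 3 of the 7 passed without the block. PGRP-LC, a receptor for bacterial peptidoglycan, had 48.9, 18.8 and 17.1 normalised counts in control cells and 357, 405 and 342 after depletion (log2 change 3.82, SE 0.30, limma adjusted p = 0.000169). NimB2 and NimB5, secreted Nimrod proteins, rose from low counts (2.60 and 2.11), and without the block their adjusted p was 0.0432 and 0.0488. The receptor gene pes and the thioester protein gene Tep2 rose by 0.60 and 0.85. Against the direction of the list, eater and Dscam1 (-0.61, adjusted p without the block = 0.0709) fell. Of 16 secreted plasmatocyte and clotting proteins 6 rose and 1 fell (median 0.80), and 4 of the 7 passed without the block. The clotting factor gene fon (fondue) had 289.5, 216 and 242 and 1039, 1304 and 1484 normalised counts, in clearly separate groups. Tig (Tiggrin), an integrin ligand of the extracellular matrix, fell from 15929, 8954 and 10223 to 7757, 3692 and 3818 (adjusted p = 0.000239, and 0.0366 without the block), lower inside each pair, with replicate 1 the highest of both groups. The plasmatocyte gene Hml had a log2 fold change of -1.58 and missed the threshold (adjusted p = 0.0106), as did He, which overlaps NimB5 (3.25, adjusted p = 0.0121).

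Of 10 tested crystal cell and lamellocyte genes 2 rose and 0 fell. Both are lamellocyte genes, PPO3, a prophenoloxidase gene (0.70, adjusted p = 0.0013, and 0.0495 without the block), and ItgaPS4, an integrin alpha chain gene, from 48.9, 36.5 and 54.4 to 223, 257 and 471. The lamellocyte marker atilla was not tested, with 0 normalised counts in each control library and 1.94, 0 and 0.97 in the depleted libraries, and lz, the crystal cell factor gene, had 0, 1.04 and 0 and 0.970, 4.97 and 0.975, near the floor. Summed lamellocyte markers were at 423 to 514 in dsEGFP and 945 to 1131 in dsMi-2 libraries, and their part in this result was not tested. Of 13 GATA factors and blood cell regulators bib rose (1.73, adjusted p without the block = 0.0137) and Su(H), the effector of Notch signalling, fell (-0.72). The GATA factor gene srp did not pass (-0.05, adjusted p = 0.76).

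Integrins and their adaptors split. Of 16 genes 5 rose and 2 fell (median -0.04), and 3 of the 7 passed without the block. The alpha chain gene scb went from 848, 339.6 and 304 to 5821, 5181 and 5339 normalised counts, a log2 change of 3.61 (SE 0.25, limma adjusted p = 0.00013), and Itgbn, the second beta chain, from 186, 77.1 and 28.8 to 687, 481 and 262. The alpha chain genes if, ItgaPS4 and ItgaPS5 had log2 fold changes of 2.05, 2.68 and 1.68. Opposite to them mys, the main beta chain, and Vinc, which encodes vinculin, fell by 0.52 and 0.55 and did not pass without the block (adjusted p = 0.0207 and 0.0256). After Ush depletion mys (0.99), Vinc (1.11), if (5.10) and scb (2.15) had positive log2 fold changes.

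Of 21 IMD pathway genes 5 rose and 1 fell (median 0.10), with 3 of the 6 past the threshold without the block. The peptidoglycan recognition genes PGRP-LA, PGRP-LC and PGRP-LF are neighbours and rose together. PGRP-LA had 279, 126 and 124 normalised counts in control and 531, 608 and 454 in depleted cells, and PGRP-LF 122, 68.8 and 61.9 and 287, 256 and 167. Each of the 3 was above its controls in every library, and PGRP-LF did not pass without the block (adjusted p = 0.0101). The negative regulator gene pirk went from 9.05, 9.38 and 9.60 to 45.6, 39.8 and 33.1. IKKbeta, the kinase of the pathway, rose by 0.73, and scny, a deubiquitinase gene, fell by 0.38. Of 20 Toll pathway genes 5 rose and 0 fell (median 0.38), 2 of them also without the block. The Toll-type receptor gene 18w had 47.05, 47.9 and 60.8 and 344, 529 and 587 normalised counts. Toll-7 rose from under 6 counts to 22.3, 17.9 and 56.5, and the NF-kappaB factor gene Dif from 665, 397 and 249.6 to 1205, 1072 and 760.3. Of 10 antimicrobial peptide genes 1 rose, edin (2.86), and 1 fell, CecC (-0.79), both with overlapping groups and neither past the threshold without the block. None of 13 JAK/STAT genes passed, in limma with the block, where the median was 0.23.

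Of 35 listed CLIP-domain and other serine protease genes 18 were not tested. Of the 17 tested genes 7 rose and 0 fell, with a median of 1.43, and 5 passed without the block. Besides CG10232 and CG4927 they were CG8213 (32.6, 15.6 and 14.9 against 154, 167 and 181 normalised counts), CG9733, CG3505, Sp7 and grass, with log2 fold changes from 1.43 to 3.02. CG4927 and CG9733 had at most 6.40 and 4.17 normalised counts in any control library, and the dsMi-2 libraries carried both past the filter. Grass acts upstream of Toll and Sp7 in melanisation. Of 29 listed serpin genes 14 were tested, of which 4 rose and 0 fell, all 4 also without the block. Spn31A went from 163, 100.01 and 95.99 to 595, 596 and 523 and Spn28Dc, an inhibitor of melanisation, from 203, 169.8 and 181 to 576, 696 and 611, while Spn28Dc was at 57.3, 55.7 and 41.6 in Ush-depleted cells. The fourth, Spn42De, had a log2 fold change of 1.54. Of 7 papain-like cysteine protease genes 3 rose, CG6357, Swim (341, 128 and 122 to 1526, 1342 and 616) and CG5367 (2.34).

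**Figure D4:**
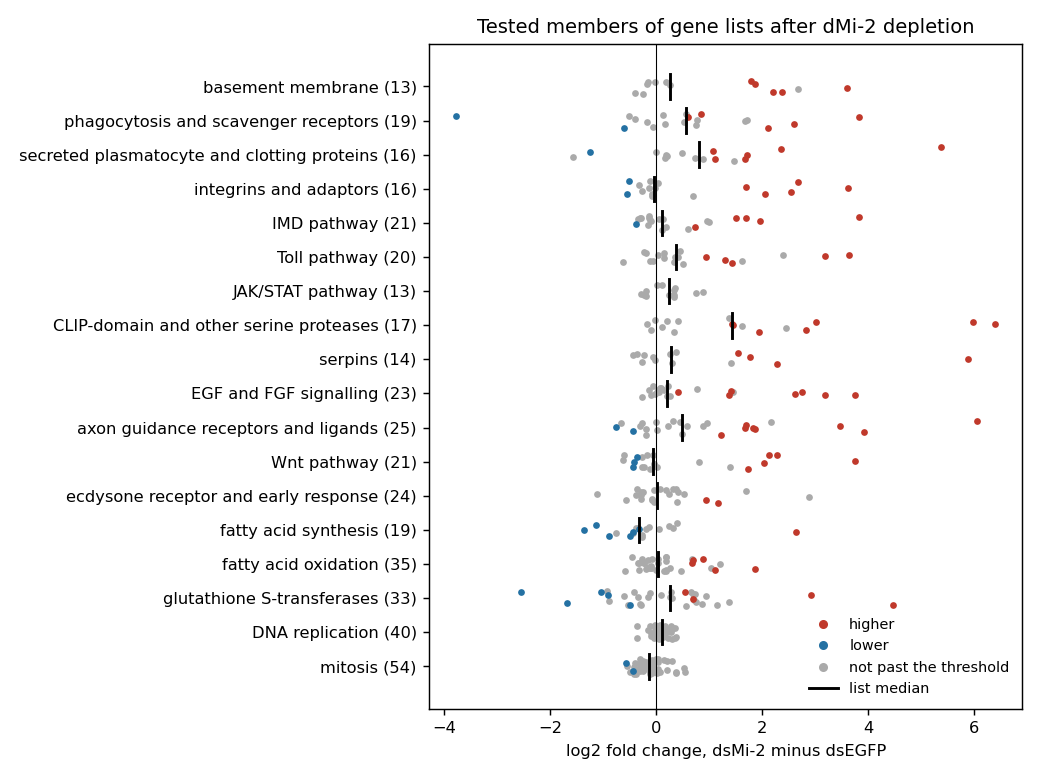
Log2 fold change (dsMi-2 minus dsEGFP) of the tested members of 18 lists, with their number in brackets, 1 point per gene, red where it rose, blue where it fell and grey where it did not pass, and the list median as a black line. The serine protease list has the highest median of these lists, 1.43, and the 40 DNA replication genes lie in a narrow band without a gene past the threshold.

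Signalling genes showed rises of ligands and receptors. In the PDGF/VEGF group Pvf1 rose while Pvf3 fell within each pair, from 3395, 2936 and 5209 to 2543, 2124 and 3927, with overlapping groups (-0.43, adjusted p = 0.00221, and 0.367 without the block). Of 23 EGF and FGF genes 7 rose and 0 fell (median 0.21), and 6 passed without the block. Among them were both FGF receptors. The tracheal receptor gene btl went from 26.2, 19.8 and 19.2 to 199.8, 166 and 252 and the mesodermal receptor gene htl from 0.905, 1.04 and 0 to 33.9, 9.95 and 23.4, at low counts. The ligand genes ths and pyr, which act on Htl, had log2 fold changes of 2.62 and 1.41. The EGF receptor ligand grk had 158, 79.2 and 163 and 982, 662 and 995 normalised counts (log2 change 2.76, SE 0.15, limma adjusted p = 4.99e-05), vn had a log2 fold change of 1.38, and S (Star), needed for ligand export, of 0.42. The FGF ligand gene bnl did not pass (0.21, adjusted p = 0.63) and was named after its value was seen.

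Of 13 Hedgehog pathway genes 3 rose and 2 fell, 2 of them past the threshold without the block. The coreceptor gene boi had 299, 339.6 and 486 normalised counts in control cells and 2592, 2872 and 3890.2 in depleted cells, with little spread (log2 change 3.06, SE 0.10, limma adjusted p = 6.03e-06), and overlaps z. Opposite to boi, disp, needed for the release of Hedgehog, went from 1619, 1459.6 and 1825 to 578, 274 and 356 (-2.08), and the second coreceptor gene ihog fell by 0.45. The glypican genes dlp and dally rose by 1.26 and 0.48, and neither passed without the block. Transcripts of hh itself were at the floor of detection, with 3.62, 5.21 and 0 and 1.94, 1.99 and 0.975 normalised counts. Of 21 Wnt pathway genes 5 rose and 3 fell. The receptor genes fz (35.3, 12.5 and 22.4 to 93.1, 84.5 and 119.9), fz2 (347, 180.2 and 132 to 1107, 758 and 1120) and fz3 (28.95, 22.9 and 28.8 to 183, 87.5 and 87.7) rose, as did the ligand gene Wnt6 (3.62, 4.17 and 2.13 to 52.4, 44.8 and 75.1) and the transcription factor gene pan (1.73), and these 5 also passed without the block. The falls were small, with -0.45 for the coreceptor arr, -0.42 for Apc and -0.37 for lgs, and none of them passed without the block. Of 13 Notch genes numb, an inhibitor of Notch, rose (431, 419 and 481 to 868, 841 and 998) and Su(H) fell. Of 17 TGF-beta genes 1 rose, the ligand mav (2.88), which had no call without the block (adjusted p = 0.0295).

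Cell adhesion and guidance genes rose in number. Of 25 genes 8 rose and 2 fell (median 0.49), and 5 of the 10 passed without the block. Fas1 (Fasciclin 1), a homophilic adhesion protein of axons, had 217, 210.4 and 290.1 normalised counts in control and 3321, 3275 and 4209 in depleted cells, a log2 change of 3.91 (SE 0.18, limma adjusted p = 2.69e-05). Fas3, an adhesion protein of septate junctions, went from 32.6, 10.4 and 8.53 to 169, 199.9 and 141, and Nrg (Neuroglian) from 1016, 877 and 619 to 3261, 3148 and 2638. For Fas1 and Nrg the 3 depleted libraries were close together. Fili, caps, Sema1a, Sema2a and sli were the other rises. The netrin gene NetB and its receptor unc-5 fell by 0.76 and 0.44, and neither passed without the block.

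Metabolic genes moved in both directions. Of 19 fatty acid synthesis genes 1 rose and 6 fell (median -0.33), and 4 of the 7 passed without the block. Fatty acid synthase (FASN1) had 37549, 38688 and 56363 normalised counts in control and 19098, 16793 and 24028 in depleted cells (log2 change -1.14, SE 0.11, limma adjusted p = 0.000408), below control inside each pair. AcCoAS, which makes acetyl-CoA from acetate, fell from 6635, 6309 and 8149 to 3472, 1949.5 and 2981, and Acsl, a long-chain acyl-CoA synthetase gene, from 13807, 15228 and 20903 to 8260.3, 7908 and 10358. The others were ATPCL, the citrate lyase gene (-0.49), spidey (-0.44) and Baldspot (-0.33). Acetyl-CoA carboxylase (ACC) had a log2 fold change of -0.39 and did not pass (adjusted p = 0.0343). The single rise was bgm, a very long-chain acyl-CoA synthetase gene, from 26.2, 27.1 and 35.2 to 195, 226 and 148. Among 35 fatty acid oxidation genes 5 rose and 0 fell, with a median of 0.03. CG4586, an acyl-CoA oxidase gene, was the largest (1.87) and the one that also passed without the block, and CG9527, CG9547, yip2 and CG12428 rose by 0.67 to 1.10. After Ush depletion 27 of the 35 genes were above control past the threshold, as were 17.4% of all tested genes. In the test of the difference 27 were lower after dMi-2 than after Ush depletion, as were 20.3% of all tested genes.

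Of 23 lipid droplet and triglyceride genes 4 rose and 3 fell, and 2 of the 7 passed without the block. Lpin, the phosphatidate phosphatase of triglyceride synthesis, fell from 5223, 6526 and 8523 to 2764, 2598 and 3184, the acyltransferase gene fu12 by 1.18 and the hormone-sensitive lipase gene Hsl by 0.50. The lipase gene Lip4 rose from 57.9, 16.7 and 17.1 to 395, 186 and 329 and the sterol carrier gene Npc2b from 195, 36.5 and 27.7 to 701, 672 and 656, where control replicate 1 stood above the other 2. None of 15 glycolysis genes rose, and Pgi (-1.23) and Gapdh2 (-0.67) fell but did not pass without the block (adjusted p = 0.019 and 0.026). Of 33 glutathione S-transferase genes 4 rose and 5 fell, 6 of the 9 also without the block. GstS1 went up from 14.5, 18.8 and 6.40 to 225, 485 and 224 and GstO3 from 172, 63.5 and 40.5 to 1002, 622 and 327, whereas GstE9, which overlaps imd, went down from 1554, 3121 and 4032 to 706, 872 and 950.4. Of the 20 peroxiredoxin and antioxidant genes, Irc, a catalase-related gene, fell by 0.85 besides both Prx2540 copies, and 3 rose. Among 17 metal transport genes 4 rose and 0 fell. The iron-binding Tsf1 (Transferrin 1) had 33.5, 21.9 and 15.998 normalised counts in control and 488, 411 and 301 in depleted cells (log2 change 4.05, SE 0.20, limma adjusted p = 2.99e-05). Tsf3, the zinc transporter gene ZnT63C and the metal transporter gene Mvl rose by 2.02, 0.95 and 0.90. Of 17 amino acid transporter genes 3 rose and 3 fell, with path and CG7888 (-0.94) among the falls and CG16700 (1.88) and CG13248 (1.68) among the rises.

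Few cell cycle genes passed. None of 40 DNA replication genes passed, with a median of 0.11 and a range from -0.37 to 0.37, and of 54 mitosis genes 2 fell and 0 rose. These were the kinetochore genes Spc105R (-0.58, from 1818, 1637 and 1892 to 1253, 1049 and 1287) and Cenp-C (-0.43), and neither passed without the block (adjusted p = 0.0549 and 0.026). Of 23 G1/S regulators 3 fell, among them Cdk4, the cyclin D partner (-0.54, adjusted p = 0.00236), which also passed without the block, tefu, the ATM kinase gene, and Mnt. Of 16 apoptosis genes the Bcl-2 family gene Debcl rose from 715, 408 and 465 to 1670.1, 1422 and 1362 and the caspase gene Drice fell by 0.45. The ecdysone pathway, in which dMi-2 has known roles in flies, had 2 rises among 24 tested genes, br (0.94) and ImpE3 (1.17), of which neither passed without the block, and EcR itself did not pass (-0.08, adjusted p = 0.544). Of 20 heat shock genes 1 rose, the cochaperone gene stv (starvin), from 77.8, 72.9 and 78.9 to 529, 602 and 845. None of 8 dosage compensation genes passed in limma with or without the block.

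Most tested genes typical of other tissues did not pass, but some had hardly any reads in either group and could not have passed. Of 36 germline genes 3 rose and 3 fell. The piRNA factor gene aub went from 142, 22.9 and 43.7 to 494, 344 and 281 and dhd, a thioredoxin gene of the female germline, from 0, 4.17 and 0 to 34.9, 27.9 and 26.3, while vret, another piRNA pathway gene, fell by 1.04. Of 22 muscle genes Mlc2, a myosin light chain gene (57.9, 38.5 and 35.2 to 421, 157 and 377), and nau, the fly MyoD homologue (9.05, 3.13 and 0 to 36.9, 43.8 and 27.3), rose and Msp300 fell (-0.73). Of 15 tested cuticle protein genes 4 rose, among them Cpr51A from 5.43, 8.33 and 8.53 to 145, 168 and 151, and 79 of the 94 listed were not tested. Of 13 midgut enzyme genes 1 rose (Jon66Ci, 3.57), as did 1 of 9 testis genes (tomb, 3.02), and of 13 neuronal genes 0 rose and Syx1A fell (-0.40). In Ush-depleted cells 9 of the 13 midgut enzyme genes were above control past the threshold. The midgut marker gene betaTry had 0 normalised counts in each dsEGFP and dsMi-2 library, so that only dsUsh libraries carried it past the filter. The midgut count therefore says little about dMi-2 depletion. Among 9 fat body genes Yp3 and Gnmt rose and Apoltp (539, 57.3 and 150.4 to 88.3, 20.9 and 44.8, with overlapping groups) and Ilp6 fell. Without the block Jon66Ci (adjusted p = 0.023), Syx1A (0.0509), Yp3 (0.0239), Gnmt (0.0159), Apoltp (0.279), aub (0.0276), nau (0.0178) and Msp300 (0.0201) did not pass, whereas dhd, vret, Mlc2, tomb and Ilp6 did. Of 10 Hox genes 2 could be tested and neither passed. Summed ovarian somatic cell markers were at 563 to 668 in dsEGFP and 1082 to 1259 in dsMi-2 libraries, where Fas3 passed, l(3)neo38 did not (0.71, adjusted p = 0.0513) and tj had 0 reads in every library.

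The genes that the study measured by RT-qPCR were picked from its own RNA-seq results, so their count is not independent evidence. Of the 14 tested 4 rose and 0 fell. They were pirk, GILT3 (44.3, 30.2 and 69.3 to 148, 127 and 179 normalised counts), CG16762 (95.004, 68.8 and 69.3 to 236, 271 and 238) and the carnitine octanoyltransferase gene CG12428 (0.67, adjusted p without the block = 0.0259). In Ush-depleted cells CG16762 was at 43299, 43360 and 57336, and its difference from dMi-2 depletion passed (adjusted p = 4.61e-07), whereas pirk did not pass that test (58.2, 36.4 and 44.8, adjusted p = 0.504). The mitotic genes of the panel, Cdk1 (-0.14), CycB (-0.12), polo (-0.08) and aurB (-0.07), had adjusted p from 0.441 to 0.709, and each of the 4 was lower in Ush-depleted than in dMi-2-depleted cells (adjusted p of the difference from 0.000654 to 0.00162).

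The test of dMi-2 against Ush depletion, whose contrast leaves out the control libraries, found 3231 genes (35.4%), with 1374 (15%) higher and 1857 (20.3%) lower after dMi-2 depletion. Both depletions were compared with the same 3 control libraries, so their values are given here side by side and not as an overlap. Among the lists with many differences were DNA replication (28 of 40, 27 higher after dMi-2 depletion), mitosis (31 of 54, 30 higher), basement membrane (9 of 13, all higher), fatty acid oxidation (29 of 35, 27 lower) and integrins (13 of 16, 11 lower). Over 50% of the tested members also differed in other lists, such as Notch (11 of 13, 7 lower) and apoptosis (12 of 16, 8 lower). The medians against control were 0.11 after dMi-2 and -0.40 after Ush depletion for DNA replication, -0.14 and -0.62 for mitosis, 0.26 and -1.80 for the basement membrane, 0.03 and 0.89 for fatty acid oxidation, and -0.04 and 0.71 for integrins.

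Genes that rose lay next to each other more often than tested genes at large lay next to a gene that rose. Of 691 genes that rose and have a place in the Release 6 table, 176 (25.5%) had a directly neighbouring tested gene that also rose, where 14.4% of all tested genes had such a neighbour. With overlapping neighbours left out the shares were 22.6% and 12.2%. For the genes that fell they were 16% and 10.5%, and 13.7% and 8.51% without overlapping neighbours. There were 16 runs of at least 3 neighbouring genes that rose and 2 of genes that fell. A run on 2R held Fs, CR44370, scb and ItgaPS4 (log2 fold changes 5.70, 4.73, 3.61 and 2.68), and a run on 3L held Slc45-1 (2.82) and the 3 PGRP genes. Another run on 3L held nuf, CG7924, fz and CG13482. The ionotropic receptor genes Ir7e, Ir7f and Ir7g on the X chromosome fell side by side (-1.36, -1.30 and -1.20). In the glucose-methanol-choline oxidoreductase genes inside Flo2 on the X chromosome, neighbours moved apart, as CG9503 (4.15) and CG12398 (2.56) rose while CG9521 (-1.98) and CG9519 (-2.47) fell. By chromosome arm 6.96% (2L) to 8.09% (X) of tested genes rose on the large arms, and 3.90% (3L) to 6.95% (X) fell.

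The replicates differed in the size of the response. The dsMi-2 library of replicate 1 kept the most Mi-2 transcript, 1567 normalised counts against 1125 and 1152, while within pairs 29.9%, 20.8% and 27.0% remained in replicates 1, 2 and 3, so that replicate 3, with the largest falls, lay closer to replicate 1 than to replicate 2. Within same-numbered pairs the median log2 ratio of the 490 genes that fell was -0.56 in replicate 1, -0.70 in replicate 2 and -0.77 in replicate 3, and the change was smallest in pair 1 for 322 of them (65.7%). For the 46 genes that fell at least 4-fold it was smallest in pair 1 for 34 (73.9%), and for the 324 that rose at least 4-fold for 173 (53.4%). Whether the remaining transcript plays a part in this was not tested.

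**Figure D5:**
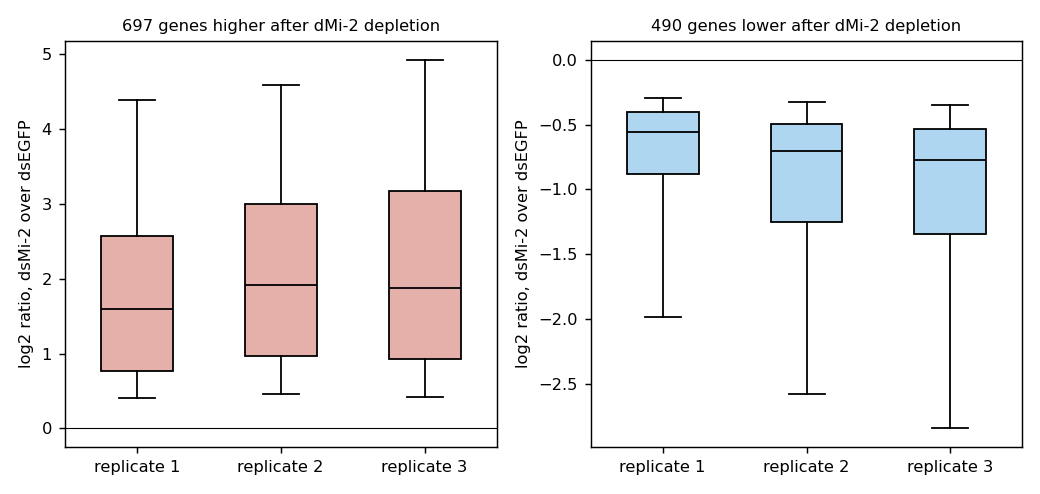
Log2 ratio of dsMi-2 over dsEGFP (normalised count plus 1) within each same-numbered pair for the 697 genes that rose and the 490 that fell, with boxes from the lower to the upper quartile, the median as a line and whiskers from the 5th to the 95th percentile. The medians of replicate 1 lie nearest to 0, at 1.6 and -0.56.

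The 4 control libraries of the Ush-B experiment allowed a look at other dsEGFP-treated cells. On reads scaled to the total on genes, all 3 dsMi-2 libraries lay above all 4 separate controls for 311 of the 324 genes that rose at least 4-fold (96.0%) and below them for 42 of the 46 that fell at least 4-fold (91.3%). The same held above for 22.5% and below for 13.5% of all tested genes. The dsEGFP libraries of the main comparison lay above the separate controls for 7 of the 324 genes (2.16%) and below them for 1 of the 46 (2.17%). Over all tested genes these shares were 6.14% and 5.68%. The dsMi-2 and dsEGFP libraries that chose the genes enter these counts, which are therefore a description. Both tables were sequenced and normalised apart.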

How the data were processed

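Cells were treated with dsRNA in 3 independent transfections per group. Poly(A) RNA was sequenced as single reads of 50 bases, reads on genes were counted with featureCounts (1.6.2 per the submitters' processing notes), and the authors deposited a signal, the count per gene divided by a DESeq2 size factor. Genome build and strand setting are not given in the sources used here. The deposited signal gave whole reads for 100% of values within 0.05.

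The main test was limma (3.58.1, R 4.3.3; empirical Bayes with trend) on log2(normalised count + 1) over the 9 libraries of the table, with group and replicate number as terms, and Benjamini-Hochberg adjustment over 9132 genes. The p-values in the text are from it unless another setting of limma, such as without the block, is named with them. A fold change on this scale understates that of genes with few reads. Same-numbered dsEGFP and dsMi-2 libraries deviated together from their group means (correlations 0.463 to 0.569, other numbers -0.386 to -0.043), and equal numbers were used as pairs. Deviations within a group sum to 0, so the negative values of other numbers are not separate support. The labels do not say what same-numbered libraries shared. edgeR (4.0.16) and DESeq2 (1.42.0) on the recovered reads, other scalings, filters and pseudocounts, and leaving out each library were alternatives. Named were the 15 largest rises and falls, genes near silent in controls, and listed genes. Members and lists were chosen with earlier results of these data known. Tables of the authors' own comparisons hold fold changes and p-values and were not used. Gene order and overlaps came from the RefSeq table of Release 6, which matched 9096 of the tested names, and 4 listed names had been turned into dates. Counting error alone is covered by the floor of 3 reads.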

Additional observations from a re-analysis of the deposited data

How the results depend on the processing

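The number of genes past the threshold (1187) was 574 without the replicate block, 604 without the trend and 2371 at an adjusted p under 0.05. The rises (697) numbered 396, 421 and 1239 in these settings, and the falls (490) 178, 183 and 1132. Without the replicate block, the changes of at least 2-fold went from 659 to 435 and the genes that differ between dMi-2 and Ush depletion from 3231 to 2082, and 58 of 160 named genes that passed lost their call. With 1 library or 1 replicate number left out, the calls ranged from 120 (without replicate number 3) to 1310, the rises from 92 to 770, the falls from 28 to 540, the changes of at least 2-fold from 115 to 699 and the differences from Ush depletion from 1457 to 3162. Leaving out a library also leaves fewer samples. With the block, edgeR called 1146 and DESeq2 1536 genes. DESeq2 without the block called 1072, of which 949 were among the 1187, so the drop to 574 belongs to the limma fit. Between 965 and 1275 genes passed under other pseudocounts, filters and scalings and with only the 6 libraries. None of the 1187 genes changed sign while past the threshold in any setting, and 28 of the 160 named genes kept their call in all 26 settings. The Mi-2 log2 fold change kept its direction and call throughout.

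Depth limits the genes near the floor of 3 reads in both groups, where differences were not detectable. A single dsRNA, a single cell line and 3 transfections per group set the reach of the p-values.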
